A study of Mus musculus with 16 samples.

Results

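Expression of 10 genes of the Wnt signalling pathway was followed over 16 arrays of the mouse embryonic stem cell line E14. The genes were the ligand gene Wnt3, the secreted inhibitor genes Dkk1, Wif1 and Sfrp1, the intracellular antagonist genes Nkd1 and Axin2, the nuclear factor genes Lef1, Tcf7 and Pygo1, and the target gene Sp5. They were chosen by name, and every probe that bears one of these names was read, which gave 16 probes of 41174 on the array. Of these, 15 passed the filter on dim probes, and all 10 genes were among the 18278 genes tested. All cells stably carried a lentiviral short hairpin RNA, directed at Sirt1 (sh-SIRT1), which encodes an NAD-dependent deacetylase, or a control hairpin (sh-Control). They grew in serum medium with leukemia inhibitory factor, which holds stem cells undifferentiated, and received 20 nM retinoic acid (RA) or ethanol vehicle for 2 days. There were 6 arrays of sh-SIRT1 cells under RA and 3 in vehicle, and 4 arrays of sh-Control cells under RA and 3 in vehicle. The labels do not say which RA arrays are duplicates of the same cells, so p-values measure the spread between arrays, which may be partly technical.

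Wnt proteins are secreted ligands that bind Frizzled receptors and LRP co-receptors at the cell surface. Binding stops the destruction complex, of which the Axin proteins are the scaffold, from degrading beta-catenin, which then enters the nucleus and acts with TCF/LEF factors on target genes. Several targets, among them Axin2, Nkd1, Dkk1 and Sp5, encode proteins that restrain the pathway, and in mouse embryonic stem cells Wnt signalling is known to favour self-renewal.

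Levels are given as the log2 intensity minus the 75th percentile of the array, so 0 is that percentile and negative values lie below it, and levels of different probes are not compared. Between 60.0 and 67.9% of an array's probes were detected well above background, and none of the spots of the 10 genes was saturated. Sirt1 followed the labels, at -2.18 ± 0.12 (log2 difference ± SE, limma adjusted p = 2.48e-07) in sh-SIRT1 RA against sh-Control RA and -1.81 ± 0.15 (adjusted p = 4.05e-05) in the vehicle groups. All 9 stem cell markers tested were well above background on every array. The sh-Control RA arrays 2 to 4 stood apart: Ddx3y, on the Y chromosome, was at -6.91, -8.01 and -8.12 there, not well above background, against 0.23 on array 1 and 0.33 or more on every array of the other groups. The differences of the 10 genes that use sh-Control RA are therefore also given with array 1 as its only array. So are the counts over the whole pathway list and, for RA against vehicle, those of each marker list. In that fit the lone array is assumed to vary like the other groups.

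Promoters are shown for the 5 genes whose window holds CTTTG, the core of the sequence that TCF/LEF factors bind: Dkk1 and Wnt3, which rose under RA in both lines, Lef1, which fell in both, Sp5, which fell in sh-SIRT1 cells, and Wif1, which rose in sh-Control cells. Nkd1 and Pygo1, which also rose in both lines, Tcf7 and Axin2 have windows without it, which are not shown. Each sequence runs 5′ to 3′ from 250 bases before the first transcribed base through 50 bases of the transcript, in the strand of the gene, from RefSeq on GRCm38.p6. Capitals mark CTTTG on either strand (CAAAG where it lies on the other strand), and in Sp5 also the longer form CTTTGAT, which contains it. The Dkk1 window is chr19:30549447-30549746, minus strand, that of Wnt3 is chr11:103773925-103774224, plus strand, that of Wif1 is chr10:121033754-121034053, plus strand, that of Lef1 (the first of its starts) is chr3:131110047-131110346, plus strand, and that of Sp5 is chr2:70474673-70474972, plus strand.
Dkk1: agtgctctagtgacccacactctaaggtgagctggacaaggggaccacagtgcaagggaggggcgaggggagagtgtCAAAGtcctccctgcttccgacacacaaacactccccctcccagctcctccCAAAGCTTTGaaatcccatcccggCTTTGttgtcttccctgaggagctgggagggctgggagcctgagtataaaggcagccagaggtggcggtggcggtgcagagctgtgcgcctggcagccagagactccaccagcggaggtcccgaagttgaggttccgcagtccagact
Wnt3: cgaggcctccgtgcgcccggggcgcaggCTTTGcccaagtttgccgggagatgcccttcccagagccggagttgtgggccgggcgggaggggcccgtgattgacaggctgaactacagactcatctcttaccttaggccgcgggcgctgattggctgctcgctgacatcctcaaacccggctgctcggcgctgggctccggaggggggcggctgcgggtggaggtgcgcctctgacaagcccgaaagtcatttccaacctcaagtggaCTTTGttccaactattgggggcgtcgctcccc
Wif1: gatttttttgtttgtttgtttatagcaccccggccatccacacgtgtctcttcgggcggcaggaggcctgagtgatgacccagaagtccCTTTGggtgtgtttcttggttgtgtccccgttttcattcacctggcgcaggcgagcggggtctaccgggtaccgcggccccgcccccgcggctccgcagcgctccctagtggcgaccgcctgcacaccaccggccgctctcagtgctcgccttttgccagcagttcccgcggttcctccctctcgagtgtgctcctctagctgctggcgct
Lef1: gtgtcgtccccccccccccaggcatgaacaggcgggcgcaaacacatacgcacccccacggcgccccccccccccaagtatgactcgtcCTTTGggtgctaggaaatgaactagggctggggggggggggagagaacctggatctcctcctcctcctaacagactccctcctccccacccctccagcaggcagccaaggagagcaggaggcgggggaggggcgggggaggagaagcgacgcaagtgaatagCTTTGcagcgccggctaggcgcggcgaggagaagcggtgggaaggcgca
Sp5: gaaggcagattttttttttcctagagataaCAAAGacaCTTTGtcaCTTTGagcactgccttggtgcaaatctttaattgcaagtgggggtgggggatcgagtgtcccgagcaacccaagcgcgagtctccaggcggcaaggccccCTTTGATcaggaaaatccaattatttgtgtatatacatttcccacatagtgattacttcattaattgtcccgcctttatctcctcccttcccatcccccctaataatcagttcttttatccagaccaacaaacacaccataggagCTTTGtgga
RefSeq promoters were matched by symbol for 9 of the 10 genes, in 13 windows, and Sfrp1 was not among them. The 7-letter form CTTTGAT, searched on both strands, occurred in the window of 1 gene, Sp5, at bases -104 to -98 from the start, and in 3.73% of all 32851 promoter windows. The 5-letter core, which was searched after the longer form had been seen in a single gene, occurred in the windows of 5 of the 9 genes and in 53.9% of all windows. Sp5 held 5 copies of it and Dkk1 held 4, with a pair of them adjoining in opposite orientation at bases -122 to -113. The exact direct repeat of AGGTCA spaced by 5 bases, 1 form of the RA response element, occurred in none of these windows and in 0.00913% of all windows. A sequence so rare could hardly be met in 13 windows, and looser forms were not searched. Its absence therefore says nothing about RA response elements of these genes. These are matches of letters in a short window and no measure of binding.

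Under RA, the inhibitor gene Dkk1 rose furthest in both lines, 41.4-fold in sh-SIRT1 cells and 19.0-fold in sh-Control cells, folds that a background correction given below makes smaller. Nkd1 and Wnt3 rose about as much in either line, by 1.96 to 2.31 log2 units, and Pygo1 rose in both. Lef1 fell in both lines, Tcf7 and Sp5 fell in sh-SIRT1 cells, and Wif1 rose in sh-Control cells. In sh-SIRT1 RA against sh-SIRT1 vehicle, 7 of the 10 genes passed an adjusted p under 0.05, 4 higher and 3 lower, while 58.2% of all genes did, 23% higher and 35.3% lower. In sh-Control RA against sh-Control vehicle, 6 passed, 5 higher and 1 lower, while 46.8% of all genes did, 19.7% higher and 27.2% lower. Of these 6, Wif1 was kept for the test through the sh-Control RA group alone. Pygo1, called in both lines, was kept through the RA groups alone. The shares called among the 10 genes were thus near or somewhat above those of all genes. Levels of RA and vehicle arrays did not overlap for 7 genes in sh-SIRT1 cells (57.7% of all genes) and for 6 genes in sh-Control cells (47.6% of all genes). The median log2 difference over the 10 genes was -0.03 in sh-SIRT1 cells, beside -0.13 over all genes, and 0.92 in sh-Control cells, beside -0.14 over all genes. The first lies between Sfrp1 at -0.28 and Wif1 at 0.23, the second in the gap between Tcf7 at -0.11 and Nkd1 at 1.96. Wif1, at a fitted 2.53 over background levels in sh-Control cells, lies above that gap, so the medians are not compared between the lines.

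**Figure D1:**
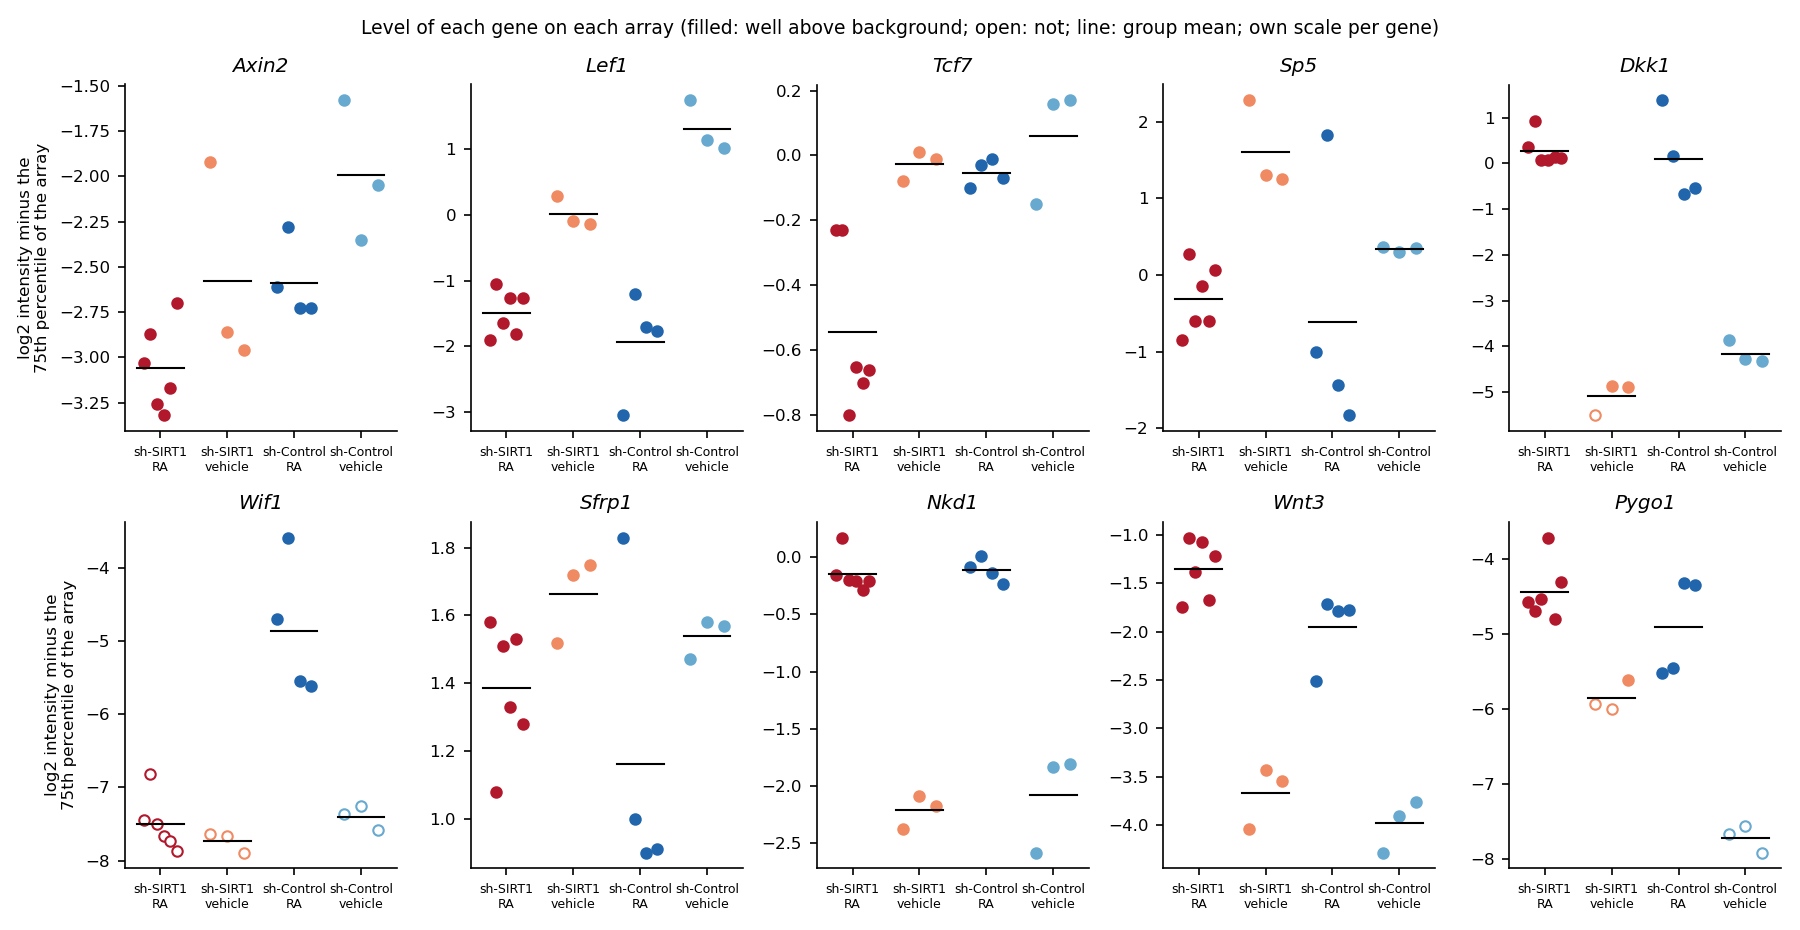
Level of each of the 10 genes on every array, as log2 intensity minus the array's 75th percentile, with groups along the horizontal axis and a separate vertical scale for each gene. Filled points were well above background, open points were not, and lines are group means. Wif1 was well above background on the 4 sh-Control RA arrays and on no other array.

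Wnt3 encodes a ligand of the beta-catenin branch of the pathway that is required for gastrulation in the mouse embryo. Its level in sh-SIRT1 RA cells was -1.75 at the lowest, -1.31 at the median and -1.03 at the highest, against -4.04, -3.43 and -3.54 in sh-SIRT1 vehicle cells. In sh-Control cells it was -2.51, -1.72, -1.79 and -1.78 under RA, against -4.28, -3.90 and -3.76 in vehicle. Every RA array was above every vehicle array, and the lowest RA value was that of sh-Control array 1. Wnt3 rose by 2.31 ± 0.22 in sh-SIRT1 cells (limma adjusted p = 9.49e-07) and by 2.03 ± 0.23 in sh-Control cells (adjusted p = 1.13e-05), where array 1 alone gave 1.47 (adjusted p = 0.00476). Within the slides that held both groups the differences were 2.33 to 2.37 in sh-SIRT1 cells and 1.25 and 2.50 in sh-Control cells. With normexp background correction and an offset of 50, which compresses dim signals, they were 1.66 in sh-SIRT1 cells and 1.27 in sh-Control cells and still passed. The probe lies at chr11:103925136-103925195 (mm7, the build in the file headers). A dimmer probe at chr11:103926765-103926824 gave 2.46 ± 0.28 in sh-SIRT1 cells and, with no sh-Control vehicle array well above background, a level at least 3.79-fold higher in sh-Control RA cells.

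Dkk1 encodes a secreted inhibitor that binds the LRP co-receptors and keeps Wnt ligands from engaging them. It was at 0.07 (lowest), 0.12 (median) and 0.93 (highest) in sh-SIRT1 RA cells, against -5.51, -4.87 and -4.90 in sh-SIRT1 vehicle cells, the first of which was not well above background. In sh-Control RA cells it was at 1.38, 0.16, -0.66 and -0.53, against -3.87, -4.28 and -4.33 in sh-Control vehicle cells. The gap between RA and vehicle arrays was wider than the spread within any group, and the 4 sh-Control RA arrays were more scattered than the 6 sh-SIRT1 RA arrays. Dkk1 rose by 5.37 ± 0.36 in sh-SIRT1 cells (limma adjusted p = 4.50e-08) and by 4.25 ± 0.39 in sh-Control cells (adjusted p = 1.45e-06). Array 1 alone gave 5.54 in sh-Control cells (adjusted p = 2.89e-06). Within slides the differences were 4.94 to 5.65 in sh-SIRT1 cells and 3.22 and 5.71 in sh-Control cells. With normexp correction they were 3.57 in sh-SIRT1 cells (adjusted p = 1.15e-06) and 2.98 in sh-Control cells (adjusted p = 2.44e-05). The second probe, at chr19:30245191-30245250 (mm7) beside the first at chr19:30246086-30246145, gave 4.54 ± 0.50 in sh-SIRT1 cells and 3.75 ± 0.54 in sh-Control cells, with 1 of 3 vehicle arrays of either line well above background. This second probe was kept for the test through the RA groups alone.

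Wif1 encodes a secreted protein that binds Wnt ligands directly. Its levels in sh-Control RA cells were -4.70, -3.59, -5.55 and -5.62, against -7.36, -7.26 and -7.58 in sh-Control vehicle cells. In sh-SIRT1 RA cells they were -7.87 at the lowest, -7.58 at the median and -6.82 at the highest, against a mean of -7.74 ± 0.14 (SD, n = 3) in sh-SIRT1 vehicle cells. The 4 sh-Control RA arrays, array 1 among them, were well above background, and none of the other 12 arrays was. Arrays 3 and 4 of sh-Control RA lay in the range of the dimmest detected signal of an array, which was -5.99 to -5.25. Wif1 was at least 1.44-fold higher in sh-Control RA than in sh-Control vehicle cells (fitted difference 2.53 ± 0.38, limma adjusted p = 1.21e-04, and 2.70 with array 1 alone). The probe was kept for the test only through sh-Control RA, so this p-value sets the group that admitted it against background levels. A bound is given where a group has no array well above background, and it takes as that group's level, on every array, the dimmest detected signal or the probe's own, whichever is higher. In sh-SIRT1 cells both groups lay below background, so no fold is given. With normexp correction the sh-Control difference was 0.65 and did not pass (adjusted p = 0.424). The probe lies at chr10:120496251-120496310 (mm7).

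Sfrp1 encodes a secreted protein with a Frizzled-like domain that binds Wnt ligands. Its levels in sh-SIRT1 RA cells were 1.08 (lowest), 1.42 (median) and 1.58 (highest), against 1.52, 1.72 and 1.75 in sh-SIRT1 vehicle cells. They were 1.83, 1.00, 0.90 and 0.91 in sh-Control RA cells, against 1.47, 1.58 and 1.57 in sh-Control vehicle cells. The groups overlapped in both lines, and sh-Control RA array 1 was above all vehicle arrays while arrays 2 to 4 were below them. The differences of -0.28 ± 0.18 in sh-SIRT1 cells (limma adjusted p = 0.194) and -0.38 ± 0.19 in sh-Control cells (adjusted p = 0.118) did not pass. Array 1 alone gave 0.29 in sh-Control cells (adjusted p = 0.237), and without it the difference was -0.60 and passed (adjusted p = 0.00138). A dimmer probe fell by 0.67 ± 0.21 in sh-Control cells (adjusted p = 0.0178), with overlapping levels. In sh-SIRT1 cells the difference of -0.28 passed when sh-Control RA array 1 was left out of the shared spread (adjusted p = 0.0334). The probes lie at chr8:22232957-22233016 and chr8:22233645-22233704 (mm7).

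Nkd1 encodes an intracellular protein that binds Dishevelled and dampens the signal, and the gene is itself a Wnt target. It was at -0.29 (lowest), -0.21 (median) and 0.17 (highest) in sh-SIRT1 RA cells, against -2.37, -2.09 and -2.17 in sh-SIRT1 vehicle cells. In sh-Control cells it was at -0.09, 0.01, -0.14 and -0.24 under RA, against -2.58, -1.83 and -1.81 in vehicle. The 10 RA arrays of both lines lay in the same narrow range, and no vehicle array came near it. Nkd1 rose by 2.06 ± 0.15 in sh-SIRT1 cells (limma adjusted p = 1.28e-07) and by 1.96 ± 0.17 in sh-Control cells (adjusted p = 7.34e-07), which is 4.17-fold in sh-SIRT1 cells and 3.89-fold in sh-Control cells. Array 1 alone gave 1.99 in sh-Control cells. Within slides the differences were 1.87 to 2.16 in sh-SIRT1 cells and 2.44 and 1.72 in sh-Control cells. The probe lies at chr8:87184514-87184573 (mm7).

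Axin2 encodes a scaffold of the destruction complex and is widely used as a readout of beta-catenin signalling. It was at -3.32 (lowest), -3.10 (median) and -2.70 (highest) in sh-SIRT1 RA cells, against -1.92, -2.86 and -2.96 in sh-SIRT1 vehicle cells. Levels in sh-Control cells were at -2.61, -2.28, -2.73 and -2.73 under RA, against -1.58, -2.35 and -2.05 in vehicle. In each line the lower vehicle arrays overlapped with the RA arrays. The differences of -0.48 ± 0.23 in sh-SIRT1 cells (limma adjusted p = 0.0860) and -0.59 ± 0.25 in sh-Control cells (adjusted p = 0.0602) did not pass, with 95% intervals of -0.96 to 0.01 in sh-SIRT1 cells and -1.12 to -0.07 in sh-Control cells. In sh-Control cells the difference was -0.78 and passed with slide as a block (adjusted p = 0.0314), and within slides it was -1.15 and -0.55. With quantile normalization of all arrays Axin2 passed in both lines, at -0.71 in sh-SIRT1 cells (adjusted p = 0.0228) and -0.73 in sh-Control cells (adjusted p = 0.0354). Array 1 alone gave -0.61 in sh-Control cells, which did not pass (adjusted p = 0.248). Without sh-SIRT1 vehicle array 3 Axin2 was at -0.66 in sh-SIRT1 cells (adjusted p = 0.0401). The sh-Control difference passed without vehicle array 2 (-0.77), without RA array 2 (-0.69) and without sh-SIRT1 vehicle array 1 (-0.59). The probe lies at chr11:109059707-109059766 (mm7).

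Lef1 encodes a TCF/LEF factor that carries beta-catenin to DNA. It was at -1.91 (lowest), -1.46 (median) and -1.05 (highest) in sh-SIRT1 RA cells, against 0.29, -0.09 and -0.14 in sh-SIRT1 vehicle cells. Levels in sh-Control cells were at -3.05, -1.20, -1.70 and -1.76 under RA, against 1.75, 1.14 and 1.03 in vehicle. No RA array reached a vehicle array, the vehicle arrays of sh-SIRT1 cells lay between these levels, and sh-Control RA array 1 was the lowest of all. Lef1 fell by 1.51 ± 0.32 in sh-SIRT1 cells (limma adjusted p = 0.00115, 2.85-fold) and fell by 3.23 ± 0.35 in sh-Control cells (adjusted p = 6.84e-06, 9.39-fold). Array 1 alone gave -4.36 in sh-Control cells (adjusted p = 1.51e-05). Within slides the differences were -2.11 to -1.17 in sh-SIRT1 cells and -3.45 and -4.08 in sh-Control cells. The probe lies at chr3:131060609-131060668 (mm7). A second probe, whose target is split over 18162 bases of the genome (chr3:131041424-131059585), gave -0.89 ± 0.31 in sh-SIRT1 cells and -2.86 ± 0.33 in sh-Control cells. A further probe, at chr3:130953629-130953688, was detected above background on none of the arrays and was not tested.

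Tcf7 encodes the TCF/LEF factor TCF1. It was at -0.80 (lowest), -0.65 (median) and -0.23 (highest) in sh-SIRT1 RA cells, against -0.08, 0.01 and -0.01 in sh-SIRT1 vehicle cells. In sh-Control cells it was at -0.10, -0.03, -0.01 and -0.07 under RA, against -0.15, 0.16 and 0.17 in vehicle. The 6 sh-SIRT1 RA arrays lay below every other array, and the 3 remaining groups overlapped. Tcf7 fell by 0.52 ± 0.13 in sh-SIRT1 cells (limma adjusted p = 0.00315, 1.43-fold), while the difference in sh-Control cells was -0.11 ± 0.14 (adjusted p = 0.519) and -0.16 with array 1 alone (adjusted p = 0.611). A second probe fell by 0.74 ± 0.14 in sh-SIRT1 cells and was at 0.07 ± 0.15 in sh-Control cells. The probes lie at chr11:52209369-52209428 and chr11:52210086-52210145 (mm7).

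Pygo1 encodes a nuclear cofactor that reads a histone mark and joins the beta-catenin complex through BCL9 proteins. Its levels in sh-SIRT1 RA cells were -4.79 (lowest), -4.55 (median) and -3.71 (highest), against -5.93, -6.00 and -5.61 in sh-SIRT1 vehicle cells, where only the last was well above background. In sh-Control RA cells they were -5.51, -5.45, -4.31 and -4.34, against -7.66, -7.56 and -7.91 in sh-Control vehicle cells, none of them well above background. RA arrays were above vehicle arrays in either line, and all 10 of them were measured above background. Pygo1 rose by 1.42 ± 0.29 in sh-SIRT1 cells (limma adjusted p = 7.57e-04). It was at least 1.40-fold higher in sh-Control RA than in sh-Control vehicle cells (fitted difference 2.81 ± 0.31, adjusted p = 8.24e-06, and 2.20 with array 1 alone). The probe was kept for the test only through the RA groups. These p-values thus set the groups that admitted it largely against background levels. With normexp correction neither difference passed, at 0.64 in sh-SIRT1 cells (adjusted p = 0.241) and 0.56 in sh-Control cells (adjusted p = 0.415). The probe lies at chr9:72978408-72978467 (mm7).

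Sp5 encodes a zinc finger repressor and is a direct Wnt target. It was at -0.85 (lowest), -0.37 (median) and 0.28 (highest) in sh-SIRT1 RA cells, against 2.28, 1.30 and 1.25 in sh-SIRT1 vehicle cells. In sh-Control cells it was at -1.0, 1.83, -1.44 and -1.83 under RA, against 0.37, 0.30 and 0.35 in vehicle. The RA arrays of sh-SIRT1 cells were all below their vehicle arrays, whereas in sh-Control cells array 2 was far above vehicle and the other RA arrays were below it. Sp5 fell by 1.92 ± 0.60 in sh-SIRT1 cells (limma adjusted p = 0.0130, 3.78-fold), and without sh-SIRT1 vehicle array 1 the difference was -1.58 and did not pass. The difference in sh-Control cells was -0.95 ± 0.64 (adjusted p = 0.241), against -1.76 without RA array 2 (adjusted p = 8.28e-04) and -1.33 with array 1 alone (adjusted p = 0.0386). Within slides the differences were -2.88 to -1.41 in sh-SIRT1 cells. The Sp5 probe was placed by gene only, on chromosome 2.

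**Figure D2:**
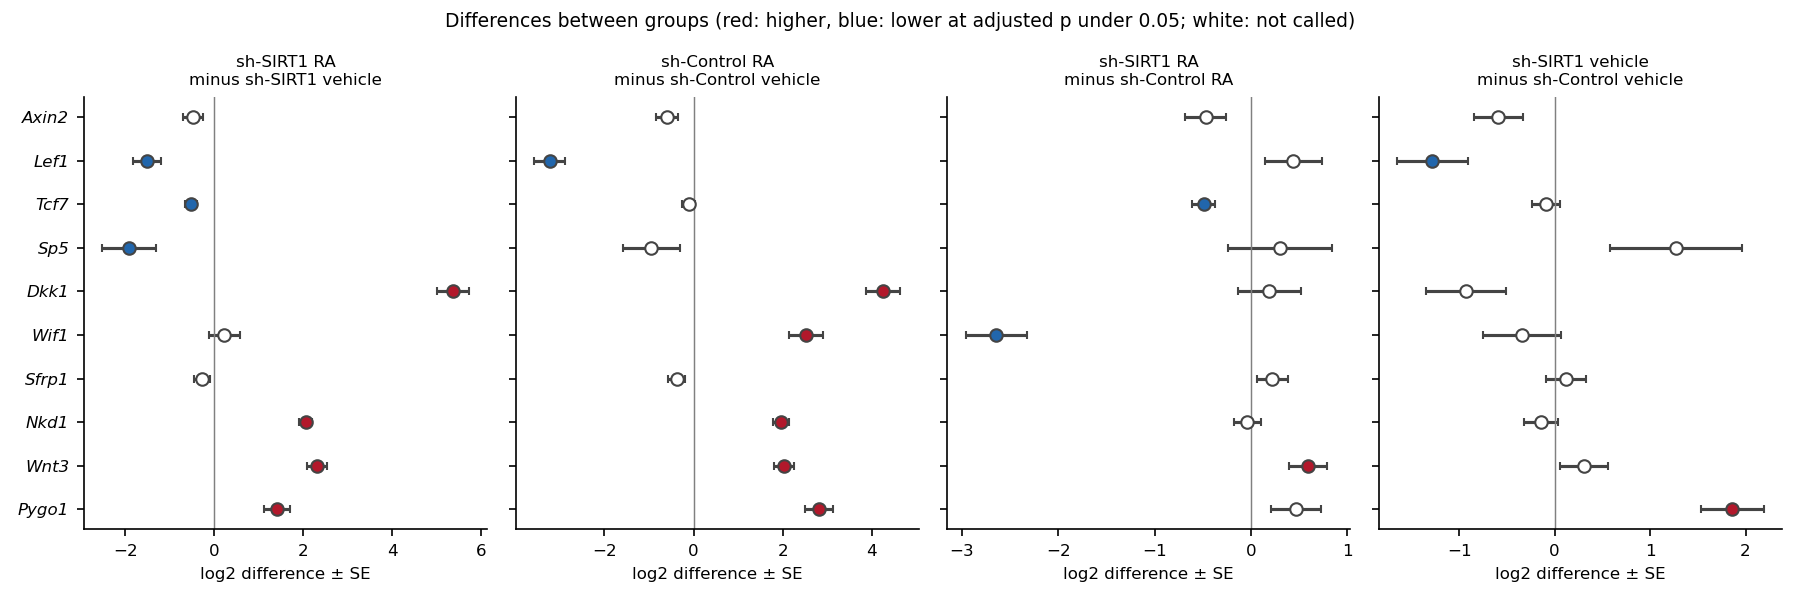
Log2 difference ± SE of each of the 10 genes (rows) in the 4 comparisons between groups (panels, each with its own horizontal scale). Red points passed an adjusted p under 0.05 as higher and blue points as lower, and white points did not pass; Dkk1 has the highest RA differences, at 5.37 and 4.25, and Lef1 the lowest in sh-Control cells, at -3.23.

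The comparison of the hairpins under RA sets sh-SIRT1 cells against sh-Control cells, both given RA. Other differences between the lines, among them a shift of chromosome 8 genes given below, cannot be told apart from an effect of the hairpin. Ddx3y was not well above background on sh-Control RA arrays 2 to 4. Wif1 and Tcf7 were lower and Wnt3 was higher in sh-SIRT1 RA than in sh-Control RA cells, so 3 of the 10 genes passed, 1 higher and 2 lower, while 20.3% of all genes did, 8.61% higher and 11.7% lower. The Wif1 probe was kept for the test only through sh-Control RA, so its p-value sets the group that admitted it against background levels. Wif1 was at least 1.89-fold lower (fitted difference -2.64 ± 0.32, limma adjusted p = 1.58e-04), with all 4 sh-Control RA arrays and none of the 6 sh-SIRT1 RA arrays well above background. The difference held with sh-Control RA array 1 alone, at -2.81 (adjusted p = 7.69e-04), and was -3.12 to -2.11 within slides, but with normexp correction it was -0.51 and did not pass. Tcf7 fell by 0.49 ± 0.12 (adjusted p = 0.00950), with no overlap between the groups. Its second probe gave -0.65 ± 0.13. With array 1 alone the Tcf7 difference was -0.44 and did not pass (adjusted p = 0.212), and within slides it was -0.65 to -0.35. Levels did not overlap for 2 of the 10 genes, Wif1 and Tcf7, and for 15.4% of all genes.

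Wnt3 rose by 0.59 ± 0.20 (limma adjusted p = 0.0474), with overlapping groups, and the call was lost in 15 of 30 alternative settings, normexp correction (0.47) among them. It was at 0.40 without sh-Control RA array 1 (adjusted p = 0.128), while array 1 alone gave 1.16 (adjusted p = 0.0331). Axin2 was at -0.47 ± 0.21 and did not pass (adjusted p = 0.128). With the replicate number as a block within treatments, Axin2 was at -0.53 and passed (adjusted p = 0.00944), while Wnt3 was at 0.63 (adjusted p = 0.00366). Whether equal numbers pair the lines was not tested. With array 1 alone Axin2 was at -0.45 (adjusted p = 0.463). Dkk1 differed by 0.19 ± 0.33, Nkd1 by -0.04 ± 0.14, Sp5 by 0.30 ± 0.54 and Lef1 by 0.44 ± 0.30, and none of them passed. The 95% interval of the Nkd1 difference was -0.34 to 0.26, and that of the Dkk1 difference was -0.51 to 0.90. Array 1 alone turned the Dkk1 difference to -1.10 (adjusted p = 0.0534) and gave 1.56 for Lef1 (adjusted p = 0.0151). Without sh-Control RA array 2 Sp5 was at 1.12 (adjusted p = 0.0136), without array 1 Sfrp1 was at 0.45 (adjusted p = 0.00864), and with array 1 alone it was at -0.45 (adjusted p = 0.118), beside 0.22 ± 0.16 with all 4 arrays. With array 1 alone Nkd1 was at -0.07, Sp5 at 0.69 and Pygo1 at 1.08 (adjusted p = 0.0546), beside 0.47 ± 0.26 for Pygo1 with all 4 arrays, and none of them passed. The median over the 10 genes was 0.21, against -0.04 over all genes.

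In vehicle, Pygo1 was higher and Lef1 lower in sh-SIRT1 than in sh-Control cells, and the other 8 genes did not pass. The 2 of 10 called compare with 8.62% of all genes, 4.41% higher and 4.21% lower. Pygo1 had a fitted difference of 1.86 ± 0.33 (limma adjusted p = 0.00385), but its level was well above background on 1 of the 6 arrays compared, and with normexp correction the difference was 0.08. Lef1 fell by 1.28 ± 0.37 (adjusted p = 0.0482, 2.43-fold), with the 3 sh-SIRT1 arrays below the 3 sh-Control arrays. Its second probe gave -1.36 ± 0.35 (adjusted p = 0.0296), and the differences were -1.84 and -1.27 within the slides that held both groups. The Lef1 call was lost in 18 of 30 alternative settings, among them normexp correction (-1.22) and the absence of any 1 of the 6 vehicle arrays. Over the settings that left out 1 array the difference was -1.42 to -1.06. The call held with slide as a block, at -1.52 (adjusted p = 0.0328), and with the replicate number as a block within treatments, at -1.28 (adjusted p = 0.00821).

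Among the genes that did not pass in vehicle, Sp5 was at 1.27 ± 0.69 (limma adjusted p = 0.288) and Dkk1 at -0.93 ± 0.42 (adjusted p = 0.188), both without overlap between the lines. The second Dkk1 probe, at -0.56 ± 0.58, overlapped. Sp5 passed when sh-Control RA array 2 was left out of the shared spread (adjusted p = 0.0250), and Dkk1 when sh-Control RA array 1 was (adjusted p = 0.0386). Sp5 was at 2.28, 1.30 and 1.25 in sh-SIRT1 cells, above the 0.37, 0.30 and 0.35 of sh-Control cells. Axin2 was at -0.59 ± 0.26 (adjusted p = 0.188) and passed with the replicate number as a block within treatments, at -0.59 (adjusted p = 0.0143). It also passed without sh-SIRT1 vehicle array 1, at -0.92 (adjusted p = 0.0334). Levels did not overlap for 5 of the 10 genes and for 36% of all genes. Among the 5 were Wif1, well above background on no vehicle array, and Pygo1, well above it on 1 of them. The median was -0.12 over the 10 genes and -0.01 over all genes. Sfrp1 and Nkd1 lie on chromosome 8, whose 731 tested genes were shifted upward in sh-SIRT1 cells, with a median of 0.36 in vehicle and 0.26 under RA. Sfrp1 was at 0.12 in vehicle and 0.22 under RA, and Nkd1 at -0.14 in vehicle and -0.04 under RA. The part of that shift in these values was not tested.

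The difference between the RA effects of the lines was then tested directly. Of all genes 3.59% passed, 1.71% higher and 1.88% lower. Wif1 alone of the 10 genes passed (limma adjusted p = 0.0283, fitted value -2.30 ± 0.52), but its probe was well above background in sh-Control RA cells alone and was kept for the test through that group. The fitted value thus takes background levels in 3 of the 4 groups, and no size of the difference is read from it. The Wif1 call was lost in 8 of 27 alternative settings, which were no filter on dim probes (adjusted p = 0.0560), slide as a block (adjusted p = 0.118), normexp correction (-0.19) and the absence of sh-Control vehicle array 2 or 3 or of any 1 sh-SIRT1 vehicle array. With sh-Control RA array 1 alone the fitted value was -2.47 (adjusted p = 0.0156). The fall of Lef1 was smaller in sh-SIRT1 cells by 1.72 ± 0.48, which did not pass on the first probe (adjusted p = 0.0626). It passed on the second probe, at 1.98 ± 0.45 (adjusted p = 0.0274), and with array 1 alone, at 2.84 (adjusted p = 0.0156). Pygo1 was at -1.39 ± 0.42 (adjusted p = 0.0803), Dkk1 at 1.12 ± 0.53 (adjusted p = 0.254) and Tcf7 at -0.40 ± 0.19 (adjusted p = 0.249). The Pygo1 value also takes background levels, since no sh-Control vehicle array and 1 of 3 sh-SIRT1 vehicle arrays were well above background. Over the alternative settings it ran from -1.94 to 0.09. Without sh-Control RA array 1, Lef1 (1.34), Dkk1 (1.55) and Pygo1 (-1.59) passed, and without array 2 Lef1 (1.96) and Pygo1 (-1.57) did. Array 1 alone turned the Dkk1 value to -0.17 (adjusted p = 0.881) and gave -0.78 for Pygo1 (adjusted p = 0.360) and -0.36 for Tcf7, none of which passed. The second Tcf7 probe passed, at -0.81 ± 0.21 (adjusted p = 0.0438). Axin2 was at 0.12 ± 0.33, Sp5 at -0.97 ± 0.88 and Sfrp1 at 0.10 ± 0.26, and none of them passed. Array 1 alone gave 0.14 for Axin2, -0.58 for Sp5 and -0.57 for Sfrp1. Nkd1 was at 0.10 ± 0.23, with a 95% interval of -0.39 to 0.59, and Wnt3 at 0.28 ± 0.32. With array 1 alone Nkd1 was at 0.07 and Wnt3 at 0.84, and neither passed.

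**Figure D3:**
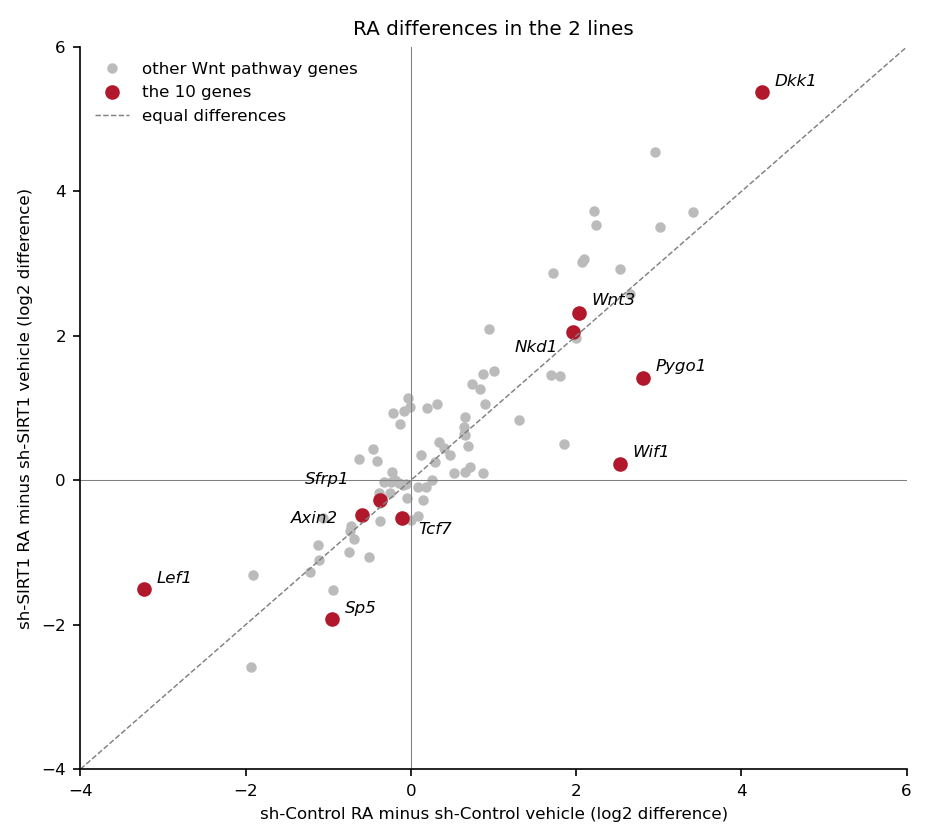
Log2 difference between RA and vehicle in sh-SIRT1 cells (vertical axis) against that in sh-Control cells (horizontal axis) for the 10 genes (red, named) and the 75 other Wnt pathway genes tested (grey). Points on the dashed line have equal differences; Nkd1 and Wnt3 lie close to it, and Wif1, at 0.23 and 2.53, lies farthest below it.

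Of a list of 94 other Wnt pathway genes, 75 were tested. In sh-SIRT1 RA against sh-SIRT1 vehicle 34 rose and 15 fell (65.3%, beside 58.2% of all genes). In sh-Control RA against sh-Control vehicle 30 rose and 15 fell (60%, beside 46.8% of all genes), and with array 1 alone 24 rose and 8 fell (42.7%, beside 38.8% of all genes). Of 10 tested ligand genes 6 rose and 1 fell in sh-SIRT1 cells, against 5 and 2 in sh-Control cells, and Wnt4 rose by 3.07 ± 0.45 in sh-SIRT1 cells and 2.10 ± 0.49 in sh-Control cells. Wnt9a rose by 1.97 ± 0.14 in sh-SIRT1 cells and 2.00 ± 0.16 in sh-Control cells. Wnt7a was at least 1.92-fold higher in sh-SIRT1 RA cells. Of 14 receptor genes 9 rose and 2 fell in sh-SIRT1 cells, against 6 and 2 in sh-Control cells, with Fzd1 up by 2.58 ± 0.30 in sh-SIRT1 cells and 2.65 ± 0.32 in sh-Control cells and Fzd4 by 1.51 ± 0.13 in sh-SIRT1 cells and 1.00 ± 0.14 in sh-Control cells. Lgr4, a receptor of R-spondins, which strengthen Wnt signals, fell, with differences of -1.10 ± 0.15 in sh-SIRT1 cells and -1.11 ± 0.16 in sh-Control cells.

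Of 13 other inhibitor genes 5 rose and 3 fell in sh-SIRT1 cells, against 4 and 2 in sh-Control cells. Frzb, a relative of Sfrp1, was at least 2.81-fold higher in sh-SIRT1 RA than in sh-SIRT1 vehicle cells. In sh-Control cells 2 of 4 RA arrays and no vehicle array were well above background for Frzb, so no size is given. Frzb was thus kept for the test through sh-SIRT1 RA alone, and its call there sets that group against background levels. Sfrp4, another such protein, fell by 2.59 ± 0.21 in sh-SIRT1 cells and fell by 1.94 ± 0.23 in sh-Control cells. Of 15 genes for ligand secretion, the relay and the destruction complex 3 rose and 4 fell in sh-SIRT1 cells, against 5 and 4 in sh-Control cells. The Wnt secretion genes Wls and Porcn had the highest differences of them. Wls rose by 3.71 ± 0.39 in sh-SIRT1 cells and 3.41 ± 0.42 in sh-Control cells, and Porcn by 1.46 ± 0.27 in sh-SIRT1 cells and 1.70 ± 0.29 in sh-Control cells.

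Of 13 other nuclear genes 4 rose and 2 fell in sh-SIRT1 cells, against 5 and 2 in sh-Control cells, and the TLE corepressor genes moved in opposite directions. Tle2 rose by 3.02 ± 0.18 in sh-SIRT1 cells and 2.07 ± 0.19 in sh-Control cells, and Tle4 fell, with differences of -1.27 ± 0.10 in sh-SIRT1 cells and -1.22 ± 0.11 in sh-Control cells. Of 7 other known targets 5 rose and 2 fell in sh-SIRT1 cells, against 4 and 2 in sh-Control cells. The homeobox gene Cdx1, also an RA target, rose by 3.51 ± 0.26 in sh-SIRT1 cells and 3.02 ± 0.28 in sh-Control cells, and Tnfrsf19 by 3.54 ± 0.26 in sh-SIRT1 cells and 2.24 ± 0.29 in sh-Control cells. The cell surface gene Cd44 was at least 19.6-fold higher in sh-SIRT1 RA than in sh-SIRT1 vehicle cells and rose by 2.95 ± 0.41 in sh-Control cells. Known targets moved in both directions, with Nkd1 and Dkk1 higher under RA and Sp5 lower in sh-SIRT1 cells.

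Between the hairpins under RA, 11 of the 75 were higher and 9 lower (26.7%), beside 20.3% of all genes. With sh-Control RA array 1 alone 8 were higher and 4 lower (16%), beside 11.1% of all genes. The zinc finger gene Sp8, a relative of Sp5, was higher in sh-SIRT1 RA cells by 1.71 ± 0.27 (limma adjusted p = 8.82e-04), the receptor gene Fzd2 by 1.39 ± 0.35 and Wls by 1.27 ± 0.36, while Wnt3a was lower by a log2 difference of -1.43 ± 0.35 and the inhibitor gene Shisa2 by -1.0 ± 0.18. In vehicle 3 were higher and 5 lower (10.7%, beside 8.62% of all genes), among them Fzd6 at 0.98 ± 0.12 and Shisa2 at -1.90 ± 0.22. In the difference of the RA effects 3 passed (4%), all lower, Ctbp2 (-0.58 ± 0.13), Apc (-0.58 ± 0.11) and Tle1 (-0.52 ± 0.13), whereas with array 1 alone 3 passed as higher and none as lower. Of all genes 3.59% passed in the difference of the RA effects with all arrays. The Apc probes disagreed in sign between the hairpins under RA, so the Apc value is uncertain.

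Markers of other cell types moved with RA as well, as did 58.2% of all genes in sh-SIRT1 cells and 46.8% in sh-Control cells. The lists are short, and a count near these shares is no result about a cell type. Of 12 primitive endoderm markers 9 passed in sh-SIRT1 cells and 8 in sh-Control cells, all higher, and all 12 passed in sh-Control cells with array 1 alone. Between the hairpins under RA none passed, and with array 1 alone 9 were lower in sh-SIRT1 RA cells. In sh-SIRT1 cells the mean level of these markers was -0.40 to 0.42 on sh-SIRT1 RA arrays and -3.27 to -3.08 on sh-SIRT1 vehicle arrays. It was 2.05, -0.11, -1.10 and -1.06 on the 4 sh-Control RA arrays, against -2.69 to -2.62 on sh-Control vehicle arrays. Dkk1 ran in the same order over these 4 arrays, with arrays 3 and 4 close together in both measures. Wif1 was at -3.59 on array 2 and at -4.70 on array 1, and it was well above background on no sh-SIRT1 RA array. An order over 4 arrays, with arrays 3 and 4 nearly alike, was not tested. Of 7 trophoblast markers 6 passed in sh-SIRT1 cells, all higher (means of -0.24 to 0.55 under RA, -3.44 to -2.69 in vehicle), against 5 higher and 1 lower in sh-Control cells (-1.23 to -0.04 under RA, -3.21 to -2.95 in vehicle).

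Of 9 fibroblast markers, listed for feeder cells, 7 passed in sh-SIRT1 cells (means of -0.11 to 1.04 under RA, -2.33 to -2.11 in vehicle) and 5 in sh-Control cells, all higher (-1.19 to 1.06 under RA, -1.82 to -1.64 in vehicle). Of the 7, Col3a1 and Dcn were kept for the test through sh-SIRT1 RA alone, and no sh-SIRT1 vehicle array was well above background for them. Their calls thus set the group that admitted them against background levels, and the counts of the lines are not compared. Over the 4 sh-Control RA arrays the mean of the 9 fibroblast markers was 0.42, 1.06, -0.99 and -1.19. The trophoblast means on these arrays were -0.05, -0.04, -1.11 and -1.23. Whether Wif1 goes with any of these means was not tested. With array 1 alone 7 fibroblast markers, all higher, and 6 trophoblast markers, 5 higher and 1 lower, passed in sh-Control cells. Of 7 markers of the primitive streak and mesoderm 3 rose and 2 fell in either line, and of 7 neuroectoderm markers 4 rose and 2 fell in sh-SIRT1 cells, against 2 and 2 in sh-Control cells. In sh-Control cells array 1 alone gave 2 mesoderm markers higher and 1 lower, and 1 neuroectoderm marker higher and 2 lower. Of 9 stem cell markers 1 rose and 6 fell in sh-SIRT1 cells, against 1 and 4 in sh-Control cells. In sh-Control cells the neuroectoderm and stem cell counts were near the 46.8% of all genes called. The stem cell marker that rose was the pluripotency factor gene Nanog, by 0.72 ± 0.14 in sh-SIRT1 cells and 1.30 ± 0.15 in sh-Control cells. In sh-Control cells 2 stem cell markers rose and 2 fell with array 1 alone. The mean of the stem cell markers was 2.72 to 3.24 on sh-SIRT1 RA arrays, against 3.68 to 3.81 in vehicle. It was 3.34 to 3.75 on sh-Control RA arrays, against 3.85 to 3.99 in vehicle. Between the hairpins under RA, 4 of the 9 stem cell markers were lower in sh-SIRT1 cells and none was higher, beside 20.3% of all genes called in either direction. In that comparison 3 of 7 neuroectoderm, 2 of 7 trophoblast and 1 of 7 mesoderm markers were higher, none was lower, and no fibroblast marker passed. The part of these cell types in the changes of Dkk1, Nkd1, Wnt3, Wif1, Pygo1, Lef1, Tcf7 and Sp5 was not tested. In these bulk samples, fewer cells of a type and less RNA per cell cannot be told apart.

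**Figure D4:**
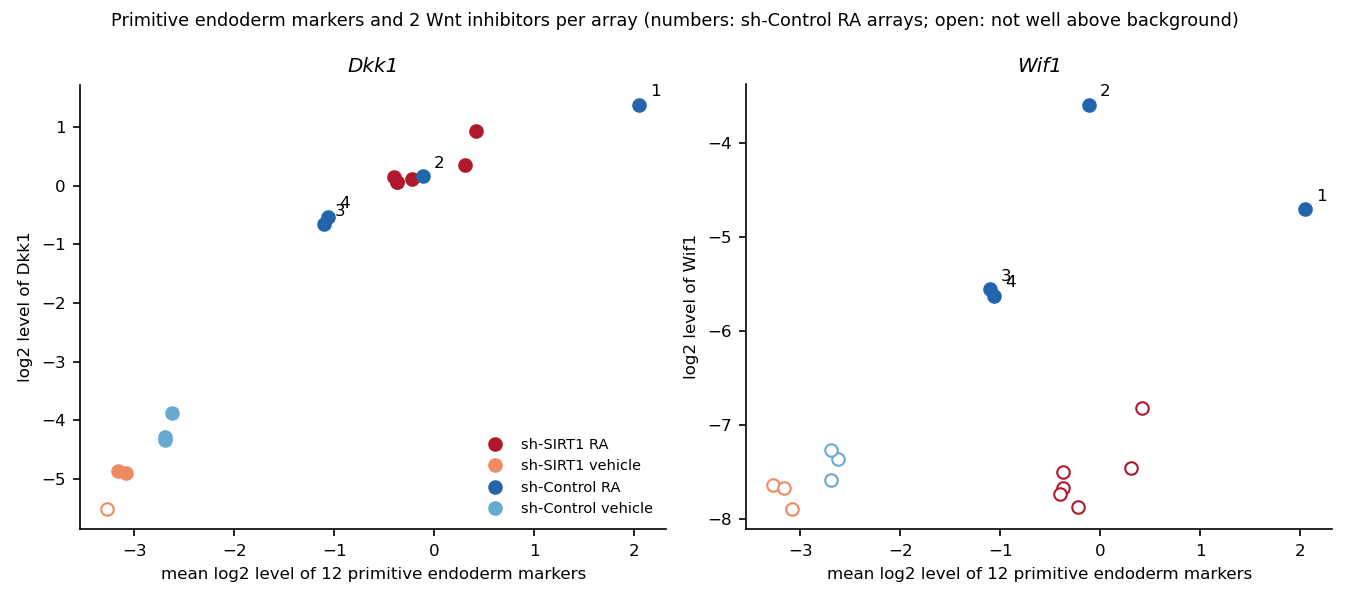
Level of Dkk1 (left) and Wif1 (right) on each array against the mean level of 12 primitive endoderm markers on the same array, all as log2 intensity minus the array's 75th percentile. Dkk1 is higher on arrays with higher endoderm means over all 4 groups, up to 1.38 on sh-Control RA array 1 (mean 2.05), whereas Wif1 is well above background on the 4 sh-Control RA arrays alone.

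As a description of likeness over the 16 arrays, which share the RA difference, the genes most correlated with each of the 10 were listed among 13799 genes with a symbol. Dkk1 was nearest to H2-Q8, Ubash3b and Serpinh1 (r = 0.99 each) and Nkd1 to Zfpm1, Sh3bp5 and Bves (0.99 each). Wnt3 was nearest to Kcne1l (0.98), Lef1 to Ranbp3 (0.97), Tcf7 to Rab27a (0.97), Pygo1 to Camk1 (0.96), Wif1 to Derl2 (0.93), Sp5 to Rexo2 (0.92), Axin2 to Aplnr (0.91) and Sfrp1 to Lurap1l (0.89). Within the 10 genes, Lef1 ran opposite to Nkd1 (r = -0.86) and to Dkk1 (-0.85).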

How the data were processed

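RNA was hybridised to 16 1-colour (Cy3) Agilent whole mouse genome arrays. Per the submitters' processing notes, spots were read with Feature Extraction 9.5. Per the file headers, the deposited processed intensity had spatial and multiplicative trends removed, with surrogate values near background. The deposited series matrix held the same intensity values on all 45018 spots of each array, on a linear scale.

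From these, log2 of the deposited processed intensity minus the 75th percentile of the array was computed, with control spots left out (43379 spots remained), outlier spots (87 to 131 per array) set to missing and spots of a probe averaged. Probes not well above background throughout any 1 group were dropped (26371 of 41174 remained), and the brightest kept probe on average stood for its gene (18278 genes, 13832 with a symbol). Probes were named through their accession in a RefSeq table (22944 probes) or else as in the files. The test was limma (version 3.58.1, R 4.3.3), with a mean for each group, all 16 arrays and 12 residual degrees of freedom. The tests were two-sided with Benjamini-Hochberg adjustment over all genes at 0.05, and the fit was tested on simulated data. Adjusted p-values of second probes come from the same fit over probes. Tables and plots were made with Python 3.11.15, pandas 2.3.3 and matplotlib 3.10.9. The number of arrays limits the precision.

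The 10 genes, the pathway lists and the marker lists were chosen with earlier results of these data known. Other pathway genes were named as the up to 4 called genes with the largest difference in a list and comparison. Alternatives were quantile normalization, normexp correction (offset 50), no or a stricter filter, probes averaged or fitted singly, outlier spots kept, slide or replicate number as a block, a trended robust variance, only the 2 groups compared, and leaving out arrays. The 4 slides each held several groups. Within a treatment, deviations of same-numbered arrays correlated at 0.431 to 0.541 under RA and 0.363 to 0.513 in vehicle. Between treatments they correlated at -0.211 to 0.219. Differently numbered arrays were not compared, so whether the numbers pair the lines was not tested. Arrays also clustered within groups. The SD of the log2 difference was 0.214 between sh-Control RA arrays 3 and 4, against 0.633 to 0.736 for the other sh-Control RA pairs. In sh-SIRT1 RA it was 0.324 between arrays 1 and 2 and 0.269 to 0.363 among arrays 3 to 6, against 0.528 to 0.616 across. Where in its transcript a probe lies was not analysed here.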

Additional observations from a re-analysis of the deposited data

Results flagged for a closer look

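In 4 of the 20 groups of 4 or 6 arrays examined, 1 array lay far from the others of its group by Dixon's criterion, which chance alone meets in about 1 in 20 groups. Dkk1 was at 0.93 on sh-SIRT1 RA array 2, with the nearest array at 0.36. Nkd1 was at 0.17 on the same array, with the nearest at -0.16. Sfrp1 was at 1.83 on sh-Control RA array 1, with the nearest at 1.00, and Wnt3 was at -2.51 on that array, with the nearest at -1.79. Wif1 is given here because its RA effect differed between the lines by a fitted -2.30 (limma adjusted p = 0.0283). Its probe was well above background on the 4 sh-Control RA arrays alone, so that value takes background levels in the other 3 groups and gives no size of the difference.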

How the results depend on the processing

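In every alternative no called difference of the 10 genes changed sign. The count of genes called was within 1.5 times the reported one in all 29 alternatives for sh-SIRT1 RA against vehicle, 28 of 29 for sh-Control RA against vehicle, 29 of 30 between the hairpins under RA, 12 of 30 in vehicle and 13 of 28 for the difference of the RA effects. Without single arrays these counts were 6 to 8, 6 to 8, 2 to 4, 1 to 3 and 0 to 4. For sh-Control RA against vehicle, the strict filter, which left 7 of the 10 genes, gave 3. With normexp correction 1 gene passed between the hairpins under RA, 0 in vehicle and 0 for the difference of the RA effects. In vehicle, quantile normalization, no filter and the strict filter gave 1 each, and sh-Control RA array 1 alone gave 4. For the difference of the RA effects, quantile normalization, averaged probes, the trended robust variance and array 1 alone gave 2 each, and no filter, the strict filter and slide as a block gave 0. With the replicate number as a block over all groups the counts were 6, 6, 2, 1 and 1. As a block within treatments they were 4 under RA and 3 in vehicle, and Axin2 alone changed its call. Causes were not tested. Normexp moved the median of all genes under RA to -0.01 in sh-SIRT1 cells and -0.03 in sh-Control cells, against -0.13 and -0.14, and left 268 genes called between the hairpins in vehicle, against 1576. For the difference of the RA effects it left 22 called, against 657, and 68.2% of these were higher, against 47.6%. It ended every call of Wif1 and Pygo1, which were well above background on 4 and 11 of the 16 arrays, and the calls of Wnt3 between the hairpins under RA and of Lef1 in vehicle, on probes above background on all 16.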
